A study of Homo sapiens with 12 samples.

Results

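RNA levels of 10 Wnt pathway genes were followed in MCF-12A, a long-established breast epithelial cell line that is not tumorigenic, given TGFbeta1 or kept as controls. They were 5 ligand genes (WNT5A, WNT5B, WNT7A, WNT7B and WNT10A), 3 Frizzled receptor genes (FZD2, FZD6 and FZD7), the co-receptor gene LRP6 and the feedback gene AXIN2, chosen by symbol from 13588 genes. Transcript values were summed per gene, and 9 of the 10 genes could be followed in at least 1 set of libraries and 8 in both. The study asked how RNA levels change when these cells receive TGFbeta1 instead of vehicle.

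The libraries fall into 4 groups. Set 1 holds TGFbeta1 replicates 1 to 3 and control replicates 1 to 3, and set 2 holds TGFbeta1 replicates 4 to 6 and control replicates 4 to 6. All 12 share the cell line, and the series' design text calls the control vehicle. The labels used here give no dose, no duration and no word on separate cultures, so the p-values rest on a spread between libraries that could be purely technical. The sets were normalised apart, so each was tested alone.

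Values are FPKM, fragments scaled by transcript length and by library total, and their depth is unknown. Differences were tested with limma on log2(FPKM + 1), over all genes of a set with a mean of at least 1 FPKM, and a gene was called at a Benjamini-Hochberg adjusted p under 0.05. In set 1 the test called 20.9% of 10454 genes, 9.0% higher and 11.9% lower. In set 2 it called 0.321% of 10579 genes, 0.17% higher and 0.151% lower. At an unadjusted p under 0.05 these were 3661 genes in set 1 and 1182 in set 2.

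Wnt proteins are secreted lipid-modified ligands that bind Frizzled receptors. With the co-receptors LRP5 or LRP6 they stabilise beta-catenin, which then acts with TCF/LEF factors, and AXIN2 is a target of that complex that restrains it. WNT5A and WNT5B are best known for beta-catenin-independent signalling, which steers cell polarity and movement. In the mouse mammary gland Wnt signals act in ductal growth and in basal cells.

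Known TGFbeta response genes, such as SMAD7, SKIL and FN1, were read as a check of the labels before the Wnt genes. In set 1 the 7 genes read were all called higher, and they summed to between 943 and 1075 FPKM in TGFbeta1 libraries, against 151 to 199 FPKM in controls. In set 2 none was called higher and CTGF was lower, with sums of 310.0 to 419.9 FPKM in the libraries labelled TGFbeta1, against 659 to 707 FPKM in controls. The direction of set 2 therefore rests on its labels. Of the 5 epithelial markers, EPCAM, CDH1, KRT8 and KRT18 were tested in both sets, while KRT19 was under 1 FPKM in every library of set 1 and not analysed in set 2. EPCAM (log2 change -1.03) and KRT18 (-0.75) were called lower in set 1. Of the 6 basal markers, all tested in both sets, KRT5 was called lower in set 1, at 873 ± 35.3 FPKM in TGFbeta1 libraries and 1365 ± 84.8 FPKM in controls (SD, n = 3 each), while ITGA6 (1.07) and LAMB3 (2.05) were called higher. No marker of these 2 lists was called in set 2. Of 8 stromal fibroblast markers, 3 were listed in set 1 (COL1A1, DCN and FAP), all called higher, with sums of 55.0 to 57.7 FPKM in TGFbeta1 libraries and 8.26 to 8.59 FPKM in controls. In set 2 their list, with PDGFRA as a 4th gene, summed to 17.5 to 21.2 FPKM in TGFbeta1 libraries and 36.1 to 39.8 FPKM in controls. There DCN was called lower (log2 change -1.14, limma adjusted p = 0.0380). COL1A2, COL3A1, LUM and PDGFRB were listed in neither set. The part of other cells in the WNT5A and WNT5B values was not tested.

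In set 1 the libraries treated with TGFbeta1 held more RNA of 4 of the 5 ligand genes, with no overlap between the groups for WNT5A, WNT5B, WNT7A or WNT7B. Of all listed genes of set 1, 18.3% lay higher with no overlap. The members were chosen with earlier results of these data known, so this is a description only. WNT10A and FZD6 overlapped between the groups. In set 2 none of the 6 tested members was called, but only 0.321% of all tested genes were, so this says little about the members. WNT5A and WNT5B, under the filter there, lay lower in the TGFbeta1 libraries with no overlap. So did 9.73% of all listed genes of set 2. These are bulk samples, so a change in the number of cells of a type and a change in RNA per cell cannot be told apart.

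WNT5A, the most studied ligand of the beta-catenin-independent branch, stood at 1.64, 1.60 and 1.69 FPKM in TGFbeta1 replicates 1 to 3, against 0.212, 0.296 and 0.252 FPKM in control replicates 1 to 3. Every TGFbeta1 library was above every control, and the ratio of the means was 6.49. The log2 change was 1.08, and the mean over the 6 libraries, 0.950 FPKM, left the gene under the filter. In the fit with no filter on low values, which called 8.53% of 13410 genes higher, WNT5A passed (95% interval 0.93 to 1.23, limma adjusted p = 0.000317). In set 2 the levels were 0.377, 0.375 and 0.383 FPKM in TGFbeta1 replicates 4 to 6, against 0.831, 0.472 and 0.760 FPKM in control replicates 4 to 6. There the treated libraries were the lower ones, again with no overlap, and the log2 change of -0.29 did not pass in the fit with no filter (95% interval -0.57 to 0.00, limma adjusted p = 0.455).

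WNT5B, the close paralogue of WNT5A, stood at 2.58, 2.10 and 1.33 FPKM in TGFbeta1 replicates 1 to 3, against 0.0467, 0.0899 and 0.162 FPKM in control replicates 1 to 3. It rose by a log2 change of 1.43 (SE 0.18, limma adjusted p = 0.00438), and the ratio of the means was 20.1. Because the controls were near 0, the size on the log scale depends on the pseudocount, and it was 3.39 with a pseudocount of 0.1. WNT5B passed the filter only through the TGFbeta1 libraries, and when any 1 of these 3 was left out its mean was under the filter and gave no test. In set 2 it was listed at 0.249, 0.127 and 0 FPKM in TGFbeta1 replicates 4 to 6, against 0.375, 0.712 and 0.452 FPKM in control replicates 4 to 6. The groups did not overlap and lay in the other order, with a log2 change of -0.43 that did not pass in the fit with no filter (limma adjusted p = 0.365).

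The WNT5B values of set 1 came largely from different transcripts in the 2 groups, although WNT5B-008 had a value in both. No transcript value in the controls was above 0.0938 FPKM, and at such levels a listed 0 is not read as absence. WNT5B-001, with 1077 annotated coding bases, was listed at 0 in all 3 TGFbeta1 libraries, against 0.0467, 0.0899 and 0.0938 FPKM in control replicates 1 to 3. WNT5B-004 was at 0.602, 1.01 and 1.02 FPKM in TGFbeta1 replicates 1 to 3 and listed at 0 in the 3 controls. WNT5B-008 was at 1.56, 0.909 and 0.184 FPKM in TGFbeta1 replicates 1 to 3, against 0, 0 and 0.0681 FPKM in control replicates 1 to 3. The rise of the gene sum was therefore held by the shorter models, with WNT5B-009 at 0.414, 0.180 and 0.133 FPKM in TGFbeta1 replicates 1 to 3 and listed at 0 in the 3 controls.

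In the GENCODE 29 annotation of GRCh38, WNT5B-004 and WNT5B-008 match WNT5B-001 from coding base 1 up to their own last annotated bases, 761 and 472, where both are tagged as incomplete at the end. WNT5B-008 begins 98378 bases upstream of WNT5B-001 on hg19. WNT5B-009 lacks an exon of 293 bases that WNT5B-001 has, and its reading frame ends soon after the new junction. Both are shown from coding base 301, chromosome 12, plus strand, with capitals after the exon junction that follows base 328. In set 1 WNT5B-001 had values in controls only and WNT5B-009 with TGFbeta1 only, and that junction is their letter-level difference. How reads were split between the models at such low values was not tested.
WNT5B-001: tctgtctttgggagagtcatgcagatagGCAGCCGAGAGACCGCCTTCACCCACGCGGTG
WNT5B-009: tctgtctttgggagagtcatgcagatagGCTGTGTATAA
Set 2 gave a value to 1 WNT5B transcript, the one called WNT5B-004 in set 1. With sums over transcripts that both sets list, WNT5B of set 1 had a mean below the filter and gave no test.

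**Figure D1:**
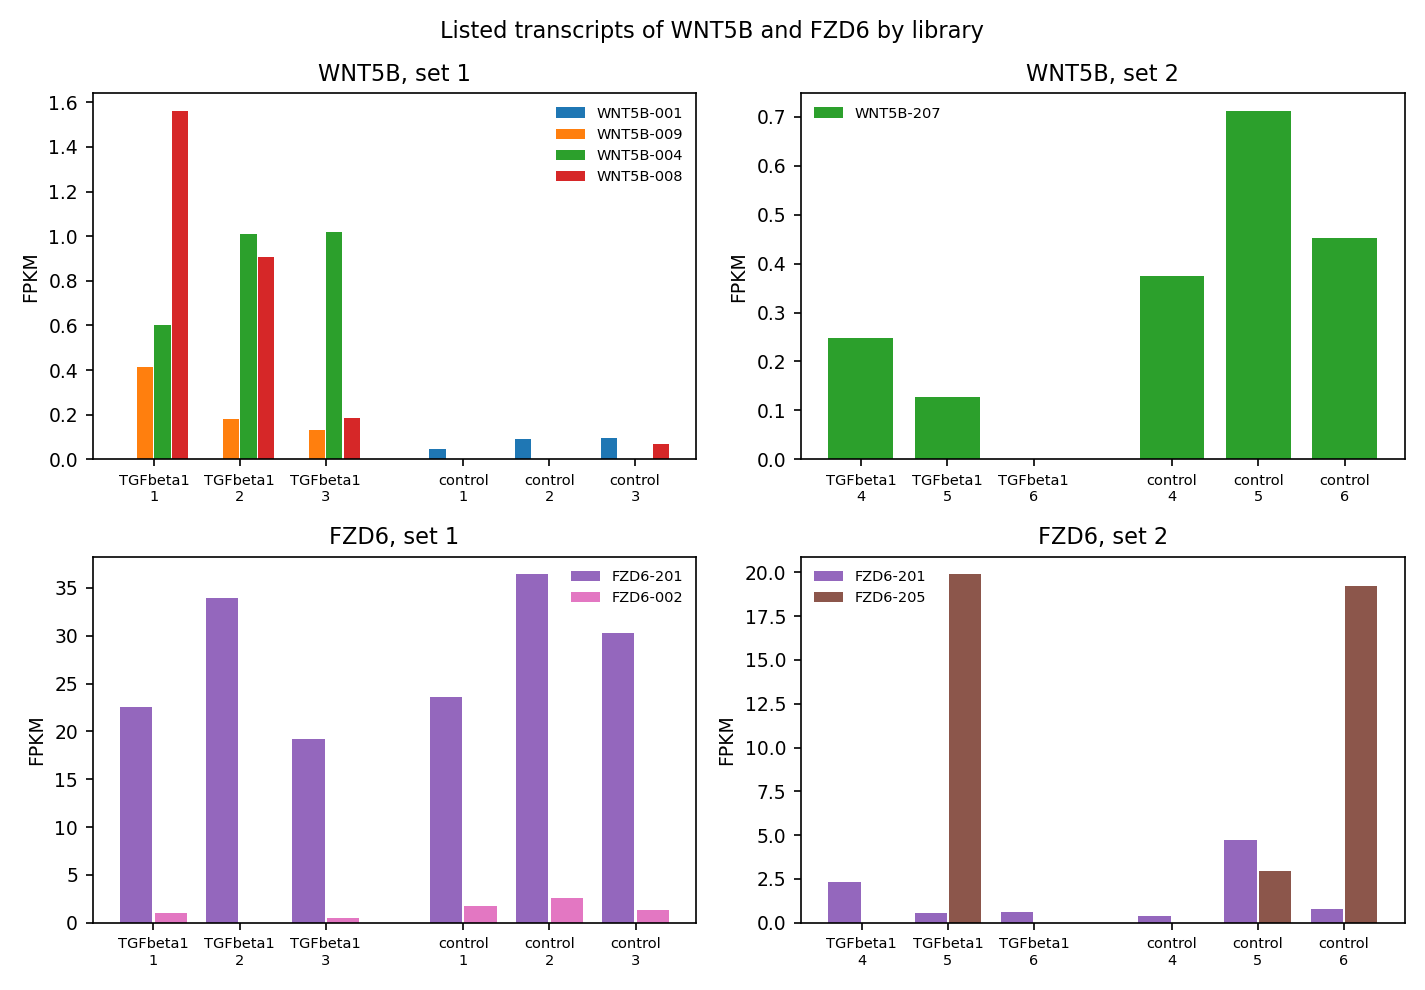
FPKM of each WNT5B and FZD6 transcript (vertical axis) in each library, TGFbeta1 libraries left of controls, set 1 in the left panels and set 2 in the right ones. WNT5B-207 of set 2 is the same transcript as WNT5B-004 of set 1, and in set 2 FZD6-205 reached 19.9 FPKM in TGFbeta1 replicate 5 and 19.2 FPKM in control replicate 6 but was listed at 0 in TGFbeta1 replicates 4 and 6 and control replicate 4.

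WNT7A, a ligand of epithelia that can act on either branch, stood at 1.40, 1.11 and 1.54 FPKM in TGFbeta1 replicates 1 to 3, against 0.490, 0.561 and 0.344 FPKM in control replicates 1 to 3. The ratio of the means was 2.90 with no overlap, and the log2 change was 0.68. The gene was under the filter in set 1 and passed in the fit with no filter (95% interval 0.43 to 0.93, limma adjusted p = 0.00851). In set 2 it was tested and not called, at 1.06, 1.09 and 1.06 FPKM in TGFbeta1 replicates 4 to 6, against 1.09, 1.29 and 1.16 FPKM in control replicates 4 to 6 (log2 change -0.08, 95% interval -0.30 to 0.15, limma adjusted p = 0.804). The 3 treated libraries of set 2 again lay just outside the range of the controls, on the lower side.

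RefSeq promoter windows of 300 bases were held for 4 of the 10 genes, WNT5A, WNT5B, WNT7A and WNT10A. None of them had the SMAD letters CAGACA or the TCF/LEF letters CTTTGAT or CTTTGAA on either strand, which 16.8%, 2.64% and 4.53% of 27305 windows hold. The RefSeq starts of WNT5A and WNT10A lie 336 and 489 bases inside the transcripts that the tables list, and that of WNT5B lies at -12141 bases from the start of WNT5B-001, so these were not the same starts. The RefSeq start of WNT7A lies 50 bases inside its listed transcript. For WNT7A, which like WNT5A was higher in every TGFbeta1 library of set 1, the 200 bases before the start of the listed transcript are shown from RefSeq on GRCh38.p14, chr3:13880121-13880321, minus strand, with the first base of that transcript in capitals.
WNT7A: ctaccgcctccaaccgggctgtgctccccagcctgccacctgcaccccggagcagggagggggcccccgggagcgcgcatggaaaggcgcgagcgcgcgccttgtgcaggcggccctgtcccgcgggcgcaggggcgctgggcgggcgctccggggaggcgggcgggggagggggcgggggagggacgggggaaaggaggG
No match says only that these letters are not in the windows.

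WNT7B, the paralogue of WNT7A, was at 2.54, 2.52 and 1.58 FPKM in TGFbeta1 replicates 1 to 3, against 0.914, 1.04 and 0.979 FPKM in control replicates 1 to 3. It rose by a log2 change of 0.69 (SE 0.15, limma adjusted p = 0.0293), with a ratio of the means of 2.26. The control mean, 0.978 FPKM, was under the filter, which WNT7B passed through the TGFbeta1 libraries. With no filter its limma adjusted p was 0.0267. The lowest TGFbeta1 value, that of replicate 3, was still above the highest control. The call was lost without any 1 library other than TGFbeta1 replicate 3 (limma adjusted p of 0.0689 to 0.0921). In set 2 the groups overlapped, at 0.875, 1.29 and 1.16 FPKM in TGFbeta1 replicates 4 to 6 and 0.870, 1.04 and 0.784 FPKM in control replicates 4 to 6 (log2 change 0.15, 95% interval -0.15 to 0.44, limma adjusted p = 0.701).

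WNT10A, a ligand of skin appendages and mammary epithelium, was low in every library. In set 1 it was at 0.108, 0.292 and 0.223 FPKM in TGFbeta1 replicates 1 to 3, against 0.255, 0.192 and 0.236 FPKM in control replicates 1 to 3. The groups overlapped, with a log2 change of -0.03 (95% interval -0.20 to 0.14 in the fit with no filter, limma adjusted p = 0.819). In set 2 the TGFbeta1 libraries were the higher ones, at 0.684, 0.608 and 0.474 FPKM in replicates 4 to 6, against 0.367, 0.426 and 0.381 FPKM in control replicates 4 to 6. That difference had no overlap and did not pass (log2 change 0.19, limma adjusted p = 0.547 with no filter). In the authors' deposited table of set 2, the p-values of WNT5A, WNT5B and WNT10A were 0.0423, 0.0325 and 0.0335, and their q-values 0.732, 0.691 and 0.698.

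**Figure D2:**
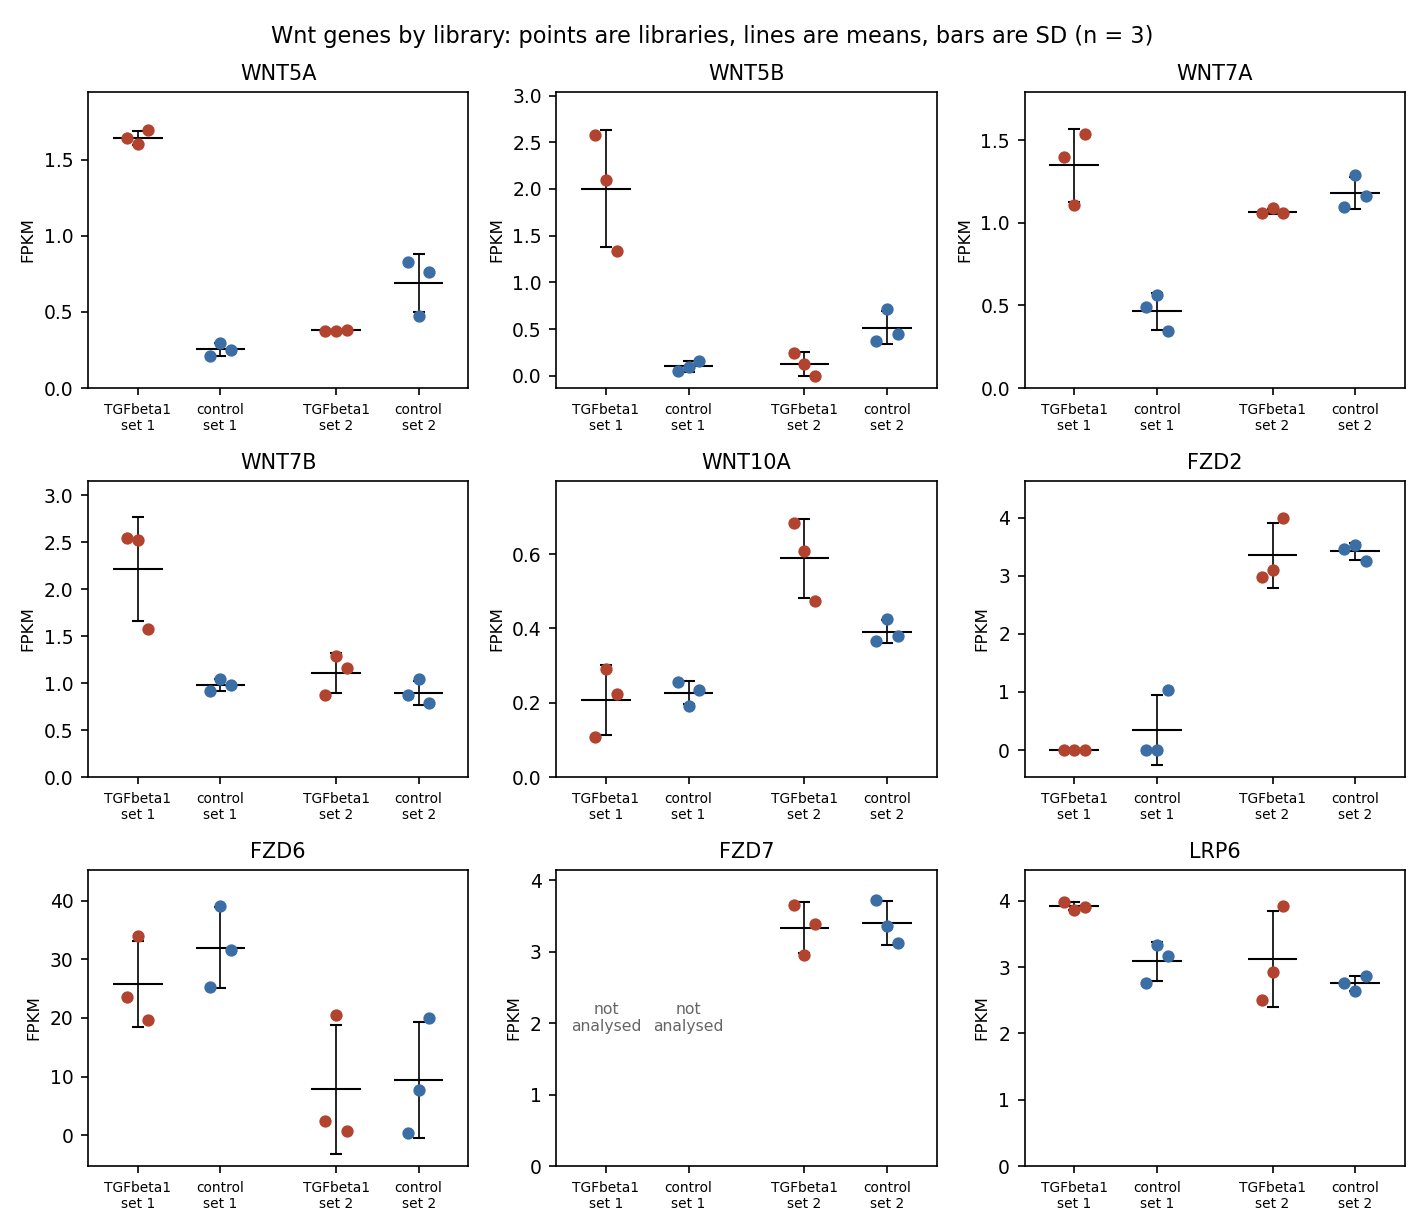
FPKM (vertical axis, from 0 or below) of 9 Wnt genes in each library, TGFbeta1 left of control within each set, with the mean as a line and the SD as a bar (n = 3). In set 1 the 3 TGFbeta1 libraries of WNT5A sit between 1.60 and 1.69 FPKM, all above the controls, while in set 2 they sit between 0.375 and 0.383 FPKM, all below the controls.

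Of the receptors, FZD6 had the highest level in both groups of set 1 and gave no call. This Frizzled is known for planar cell polarity and is often counted among those that do not raise beta-catenin. It stood at 23.5, 34.0 and 19.7 FPKM in TGFbeta1 replicates 1 to 3, against 25.3, 39.0 and 31.6 FPKM in control replicates 1 to 3 (log2 change -0.32, 95% interval -0.92 to 0.29, limma adjusted p = 0.409). In set 2 it ran from 0.636 to 20.4 FPKM over TGFbeta1 replicates 4 to 6 and from 0.391 to 20.0 FPKM over control replicates 4 to 6. With a log2 change of -0.37 and a 95% interval of -3.60 to 2.87, set 2 could not show a change of FZD6 in either direction.

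The spread of FZD6 in set 2 moved with 1 transcript. FZD6-205 was listed at 0, 19.9 and 0 FPKM in TGFbeta1 replicates 4 to 6, against 0, 2.93 and 19.2 FPKM in control replicates 4 to 6. FZD6-201, the other model, was at 2.35, 0.553 and 0.636 FPKM in TGFbeta1 replicates 4 to 6, against 0.391, 4.74 and 0.774 FPKM in control replicates 4 to 6. FZD6-205 and FZD6-201 have the same number of annotated coding bases in GENCODE 29, 2118. In set 1, where FZD6-205 had no value, FZD6-201 held most of the sum, at 25.2 ± 7.74 FPKM in TGFbeta1 libraries and 30.1 ± 6.40 FPKM in controls (SD, n = 3 each). The smaller model FZD6-002 was at 1.05, 0 and 0.473 FPKM in TGFbeta1 replicates 1 to 3, against 1.74, 2.58 and 1.36 FPKM in control replicates 1 to 3, and was not called per transcript (log2 change -0.98, limma adjusted p = 0.179).

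FZD2 and FZD7, closely related receptors, are each encoded on 1 exon. FZD2 of set 1 was listed at 0 in all 3 TGFbeta1 libraries and at 0, 0 and 1.03 FPKM in control replicates 1 to 3, and no change can be read from these values. In set 2 it was at 2.97, 3.09 and 4.0 FPKM in TGFbeta1 replicates 4 to 6, against 3.46, 3.53 and 3.26 FPKM in control replicates 4 to 6 (log2 change -0.03, 95% interval -0.31 to 0.25, limma adjusted p = 0.952). FZD7, analysed in set 2 alone, was at 3.66, 2.95 and 3.39 FPKM in TGFbeta1 replicates 4 to 6, against 3.73, 3.36 and 3.12 FPKM in control replicates 4 to 6 (log2 change -0.02, 95% interval -0.28 to 0.23, limma adjusted p = 0.959). Both overlapped between the groups.

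The zeros of FZD2 in set 1 were shared by other genes of 1 exon. Of 141 such genes listed in both sets with a mean of at least 1 FPKM in set 2, 95 (67.4%) had a value of 0 in at least 1 library of set 1, and none had in set 2. Of 10289 genes with more exons, 135 (1.31%) had a value of 0 in set 1 and 37 (0.36%) in set 2. Whether this set the FZD2 values was not tested.

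LRP6, the co-receptor of the beta-catenin branch, was at 3.98, 3.86 and 3.90 FPKM in TGFbeta1 replicates 1 to 3, against 2.75, 3.33 and 3.16 FPKM in control replicates 1 to 3. The groups did not overlap, but the log2 change of 0.27 (SE 0.09) had a limma adjusted p of 0.0873. Only when every library was scaled to the same total did it pass (limma adjusted p = 0.0486). In 14 other alternatives it did not, among them the replicate block (limma adjusted p = 0.17). In set 2 LRP6 was at 2.51, 2.92 and 3.92 FPKM in TGFbeta1 replicates 4 to 6, against 2.76, 2.64 and 2.86 FPKM in control replicates 4 to 6 (log2 change 0.12, 95% interval -0.23 to 0.46, limma adjusted p = 0.803). The groups overlapped, and TGFbeta1 replicate 6 alone was far above the controls. AXIN2, and FZD7 in set 1, were not analysed here, so the members give no result for feedback. From the feedback and target list below, genes are named because they were called, and NKD1 and NKD2 were under the filter in set 1. The inhibitor genes RNF43 and ZNRF3 were tested in set 1 and not called (log2 change -0.10 and -0.04, limma adjusted p = 0.470 and 0.811).

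Of the 4 members tested in set 1, 2 were called, both higher, against 20.9% of all tested genes, 9.0% higher. Both WNT5B and WNT7B had a control mean under 1 FPKM and passed the filter through the TGFbeta1 libraries, so this count supports nothing. In the fit with no filter, 4 of 8 listed members were called, all higher, against 19.1% of genes called, 8.53% higher. Counting libraries alone, 5 of these 8 lay higher with no overlap, as did 18.3% of all listed genes of set 1. The members were chosen with earlier results of these data known, so these counts too are a description only. In set 2, 0 of the 6 tested members were called and 0 of the 9 listed ones with no filter, where 0.243% of 11504 genes were called. There 3 of 9 lay lower with no overlap, against 9.73% of all listed genes, and 1 of 9 higher, against 9.69%.

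**Figure D3:**
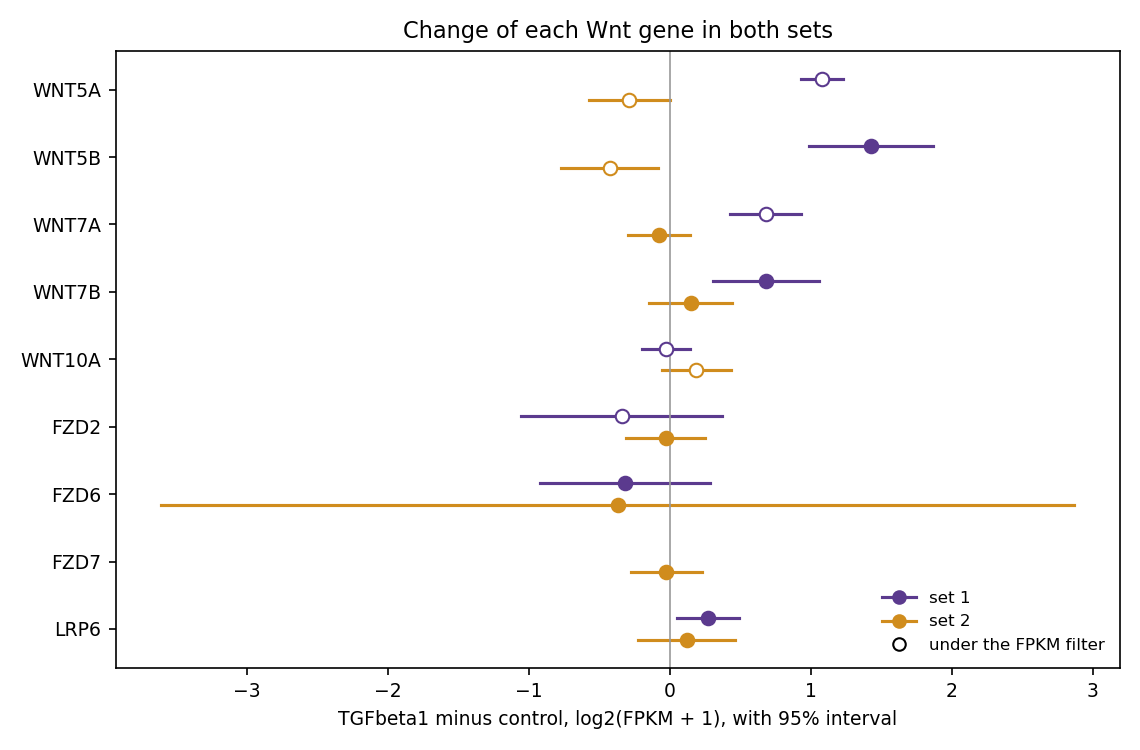
Difference of each gene, TGFbeta1 minus control on the log2(FPKM + 1) scale (horizontal axis), with its 95% interval, for set 1 above set 2 in each row; open circles are genes under the filter, whose intervals come from the fit with no filter. In set 1 WNT5A, WNT5B, WNT7A and WNT7B lie to the right of 0, between 0.68 and 1.43, and the interval of FZD6 in set 2 runs from -3.60 to 2.87.

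Whether a change differed between the sets was tested in 1 fit over the 12 libraries, which called 13.6% of 10548 genes, 6.06% with a change that was larger in set 1 and 7.56% with one that was smaller. WNT7A passed, with a change that was 0.75 larger in set 1 (SE 0.14, limma adjusted p = 0.0047). WNT7B did not, at 0.54 (95% interval 0.11 to 0.96, limma adjusted p = 0.0958), and it passed only when TGFbeta1 replicate 3 was left out (0.69, limma adjusted p = 0.0173). With no filter, where 6.07% of 11326 genes had a larger change in set 1, WNT5A differed by 1.36 and WNT5B by 1.86 (limma adjusted p = 6.69e-05 and 0.000355). WNT7A was close to the filter, and 9 of the 12 fits without 1 library gave it a test. Its means in set 1 were 1.35 FPKM with TGFbeta1 and 0.465 FPKM in controls. In set 2 they were 1.07 FPKM with TGFbeta1 and 1.18 FPKM in controls. It thus passed partly through the group where it was highest. With no filter its limma adjusted p was 0.00386. For LRP6 (0.15), FZD2 (-0.31) and FZD6 (0.05) the test did not pass, with limma adjusted p of 0.633, 0.607 and 0.986. The test thus passed for WNT7A and, with no filter, for WNT5A and WNT5B. A difference was not shown for LRP6. For FZD6 (95% interval -3.18 to 3.29) and for FZD2, listed at 0 in most libraries of set 1, no difference can be read in either direction.

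FPKM is scaled by length, so levels can be ordered across genes. In TGFbeta1 libraries of set 1 the order of mean FPKM was FZD6 (25.7 ± 7.38), LRP6 (3.91 ± 0.0590), WNT7B (2.21 ± 0.552), WNT5B (2.0 ± 0.627), WNT5A (1.65 ± 0.0457), WNT7A (1.35 ± 0.220) and WNT10A (0.207 ± 0.0931; SD, n = 3 each). WNT7B, WNT5B and WNT5A did not differ beyond their spread. In controls of set 1 it was FZD6 (32.0 ± 6.83), LRP6 (3.08 ± 0.299), WNT7B (0.978 ± 0.0626), WNT7A (0.465 ± 0.111), WNT5A (0.254 ± 0.0421), WNT10A (0.228 ± 0.0322) and WNT5B (0.0995 ± 0.0581; SD, n = 3 each). There WNT5A and WNT10A did not differ beyond their spread. FZD2, with a value in 1 library of set 1 and zeros in the rest, was left out of both orders. In set 1 WNT5B was thus the lowest ligand of the 5 in controls and stood among the highest with TGFbeta1. Its value with TGFbeta1 was summed over models of 508, 661 and 1304 bases, beside 6176 bases for WNT5A-201. In set 2 WNT5B was the lowest of the 5 with TGFbeta1 (0.125 FPKM), and WNT10A was the lowest in controls (0.391 FPKM).

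Set against the whole ligand family, the 11 WNT genes listed in set 1 summed to 14.4 ± 1.38 FPKM in TGFbeta1 libraries and 5.43 ± 0.104 FPKM in controls (SD, n = 3 each). WNT5B made up 13.7% ± 3.27 of that sum with TGFbeta1 and 1.84% ± 1.11 in controls, and WNT5A 11.5% ± 1.48 with TGFbeta1 and 4.67% ± 0.756 in controls. WNT7A and WNT7B kept similar shares, at 9.51% ± 2.37 with TGFbeta1 against 8.54% ± 1.89 in controls for WNT7A, and 15.2% ± 2.52 with TGFbeta1 against 18.0% ± 1.15 in controls for WNT7B. WNT10A made up 1.46% ± 0.656 with TGFbeta1 and 4.20% ± 0.622 in controls. In set 2 the 9 listed WNT genes summed to 8.95 ± 0.365 FPKM in TGFbeta1 libraries and 8.44 ± 0.676 FPKM in controls. These sums were not tested, and a share falls when another gene rises. FZD6 held 90.4% ± 4.71 of the summed FPKM of 8 Frizzled genes in TGFbeta1 libraries of set 1 and 88.4% ± 3.26 in controls. FZD7 was not analysed in set 1 and FZD2 was listed at 0 in most of its libraries, so the set 1 share holds those gaps. In set 2 FZD6 held 31.2% ± 33.6 of the sum of 6 Frizzled genes in TGFbeta1 libraries and 38.2% ± 32.5 in controls.

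**Figure D4:**
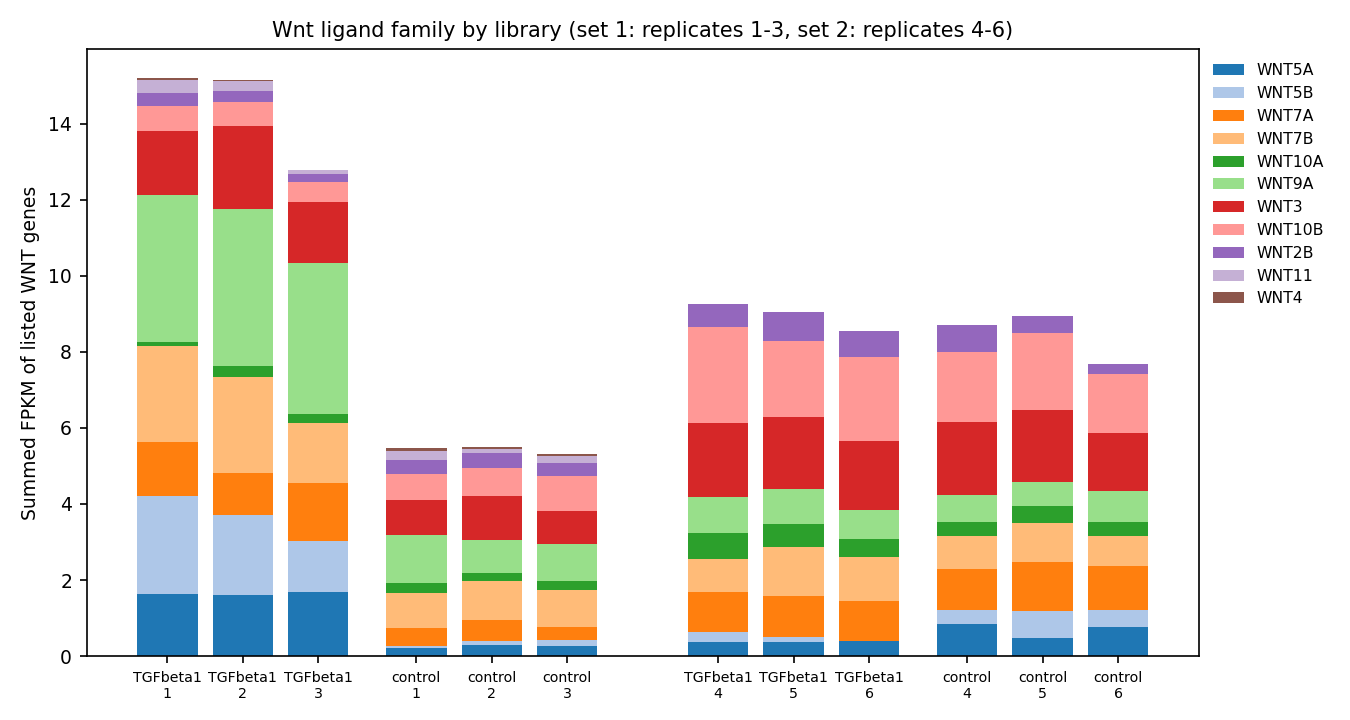
Summed FPKM of the listed WNT genes (vertical axis) in each library, with 1 colour per gene, TGFbeta1 libraries left of controls within each set. The sums averaged 14.4 FPKM with TGFbeta1 and 5.43 FPKM in controls of set 1, and 8.95 FPKM with TGFbeta1 and 8.44 FPKM in controls of set 2.

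The rest of the pathway was described with 144 other genes in 8 lists. In set 1, 16 of 84 tested genes rose and 10 fell, which is 31.0% called, with a median log2 change of 0.08, beside 20.9% called and a median of -0.05 over all tested genes. When every library was scaled to the same total, the split was 18 higher and 6 lower, while that of all genes was 1164 higher and 855 lower in place of 941 and 1245. Of the 26 called genes, 5 (GPC4, PRICKLE1, PRICKLE2, ROR1 and WNT3) had a mean under 1 FPKM in 1 group and passed the filter through the group where they were higher, so this share is a description only. With no filter, 17 of 108 listed genes were called higher and 11 lower, which is 25.9%, beside 19.1% of all genes. The lists were chosen with earlier results of these data known, so this share and the counts per list below are descriptions too. In set 2, none of 81 tested genes rose and 1 fell, which is 1.23% called, with a median of -0.01. The 16 and 10 genes of set 1 were spread over ligands, receptors and signalling steps rather than held by 1 list.

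Of the 14 other ligand genes, 2 passed the filter in set 1, WNT9A and WNT3, and both were called higher. WNT3 passed it only through its TGFbeta1 libraries, so nothing is read from this count. WNT9A, the ligand with the highest level in TGFbeta1 libraries, was at 3.86, 4.13 and 3.97 FPKM in TGFbeta1 replicates 1 to 3, against 1.26, 0.879 and 0.980 FPKM in control replicates 1 to 3 (log2 change 1.29, limma adjusted p = 0.000968). WNT3 rose by 0.51, a call that was lost without any 1 library (limma adjusted p of 0.0605 to 0.102). PORCN, the acyltransferase that Wnt proteins need for secretion, rose to 10.3 ± 0.454 FPKM with TGFbeta1, against 6.92 ± 1.09 FPKM in controls (SD, n = 3 each; log2 change 0.53, limma adjusted p = 0.0330). It was 1 of 2 tested genes of Wnt processing and release (50% called, beside 20.9% of all tested genes). Its call was lost in 6 of 16 alternatives, without any 1 TGFbeta1 library or control replicate 2 (limma adjusted p of 0.07 to 0.1), with the replicate block, and with shared transcripts, where the log2 change was 0.29 (limma adjusted p = 0.615).

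Of 8 other receptor and co-receptor genes tested in set 1, 2 rose and 2 fell, which is 50% called, beside 20.9% of all tested genes. PTK7, a pseudokinase receptor of planar cell polarity, rose to 25.8 ± 0.928 FPKM with TGFbeta1, against 10.9 ± 3.79 FPKM in controls (SD, n = 3 each; log2 change 1.22, limma adjusted p = 0.0155). GPC4, a cell-surface proteoglycan that binds Wnt, rose by 0.56. ROR1, a receptor of WNT5A, fell to 0.623 ± 0.152 FPKM with TGFbeta1, against 1.38 ± 0.293 FPKM in controls (log2 change -0.55, limma adjusted p = 0.0416), and LRP5, the partner of LRP6, fell by 0.39 (limma adjusted p = 0.0446). The ligand WNT5A thus lay higher in libraries where its receptor gene ROR1 lay lower. GPC4 and ROR1 passed the filter only through the group where they were higher, so nothing is read from these calls. With no filter the limma adjusted p was 0.00634 for GPC4 and 0.0313 for ROR1. LRP5 lost its call in 10 of 16 alternatives, ROR1 in 4 of 9, including each that left out 1 TGFbeta1 library, and PTK7 without TGFbeta1 replicate 1 or 2 (limma adjusted p of 0.0562 and 0.054).

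Of 8 secreted and membrane inhibitor genes, DKK3 alone rose in set 1, at 9.33 ± 1.2 FPKM with TGFbeta1 and 3.0 ± 0.767 FPKM in controls (SD, n = 3 each; log2 change 1.38, limma adjusted p = 0.00461). That is 12.5% of the list called, beside 20.9% of all tested genes. DKK3 is a divergent family member that does not block LRP5 and LRP6 as DKK1 does. DKK1 was the only pathway gene called in set 2, and the call was lost in 8 of 16 alternatives, among them each that left out 1 library (limma adjusted p of 0.0957 to 0.151). It was at 41.9, 41.3 and 41.6 FPKM in TGFbeta1 replicates 4 to 6, against 58.5, 56.4 and 60.3 FPKM in control replicates 4 to 6 (log2 change -0.48, limma adjusted p = 0.0380). With no filter the receptor gene ROR2, named after its value was seen, was also called lower in set 2 (log2 change -1.04, limma adjusted p = 0.0492). In set 1 DKK1 was at 3.83, 6.22 and 3.99 FPKM in TGFbeta1 replicates 1 to 3, against 9.91, 5.57 and 17.7 FPKM in control replicates 1 to 3, and did not pass (log2 change -0.98, limma adjusted p = 0.147).

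The cytoplasmic chain gave 1 rise and 1 fall among 21 tested genes of set 1, which is 9.52% called, beside 20.9% of all tested genes. AXIN1, a scaffold of the complex that destroys beta-catenin, fell to 11.3 ± 0.711 FPKM with TGFbeta1, against 16.4 ± 0.759 FPKM in controls (SD, n = 3 each; log2 change -0.50, limma adjusted p = 0.00936). The kinase gene CSNK1D rose by 0.29, a call lost without any 1 library other than control replicate 3 (limma adjusted p of 0.0619 to 0.0924). Of 9 nuclear factors, the beta-catenin cofactor BCL9 rose by 0.48 and the corepressor TLE1 fell by 0.52 (limma adjusted p = 0.0299 and 0.0142). That is 22.2% of the list called, near the 20.9% of all tested genes. BCL9 lost its call without any 1 library other than control replicate 3 (0.0817 to 0.0893), and TLE1 without TGFbeta1 replicate 1 or 2 (0.0534 and 0.0542).

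Of 12 tested feedback and target genes in set 1, 4 rose and 2 fell, which is 50% called, beside 20.9% of all tested genes. EPHB2, an ephrin receptor, was at 5.92, 5.88 and 5.73 FPKM in TGFbeta1 replicates 1 to 3, against 0.789, 1.03 and 1.25 FPKM in control replicates 1 to 3 (log2 change 1.76, limma adjusted p = 0.000448). CD44, a hyaluronan receptor, rose to 181 ± 7.58 FPKM with TGFbeta1, against 110 ± 1.05 FPKM in controls (log2 change 0.71, limma adjusted p = 0.000890). EPHB3, the paralogue of EPHB2, went the other way and fell by 0.88 to 5.97 ± 0.457 FPKM with TGFbeta1, against 11.8 ± 0.239 FPKM in controls (SD, n = 3 each). MYC had a log2 change of -0.81 (limma adjusted p = 0.0496), a call lost in 14 of 16 alternatives. These genes have many regulators besides beta-catenin.

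In the beta-catenin-independent branch, 4 of 22 tested genes rose and 4 fell in set 1, which is 36.4% called, beside 20.9% of all tested genes. PRICKLE2, a planar cell polarity protein, was at 5.82, 5.65 and 5.97 FPKM in TGFbeta1 replicates 1 to 3, against 0.787, 0.732 and 0.662 FPKM in control replicates 1 to 3 (log2 change 1.98, limma adjusted p = 0.000116). Its paralogue PRICKLE1 fell to 0.245, 0.372 and 0.343 FPKM in TGFbeta1 replicates 1 to 3, against 1.46, 3.30 and 1.89 FPKM in control replicates 1 to 3 (log2 change -1.25, limma adjusted p = 0.0142). Both genes passed the filter only through the group where they were higher, so nothing is read from these calls. With no filter the limma adjusted p was 0.000133 for PRICKLE2 and 0.0130 for PRICKLE1. The membrane protein gene VANGL2 rose by 0.56 and the polarity cadherin gene CELSR2 fell by 0.67. VANGL2 lost its call without any 1 TGFbeta1 library (limma adjusted p of 0.0549 to 0.0618), and PRICKLE1 without TGFbeta1 replicate 1 (0.0531). With transcripts that both sets list, PRICKLE1 and PRICKLE2 fell under the filter. PRICKLE2 of set 2 was listed at 0.0165, 0.0231 and 0 FPKM in TGFbeta1 replicates 4 to 6, against 1.11, 0.947 and 0.00512 FPKM in control replicates 4 to 6.

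**Figure D5:**
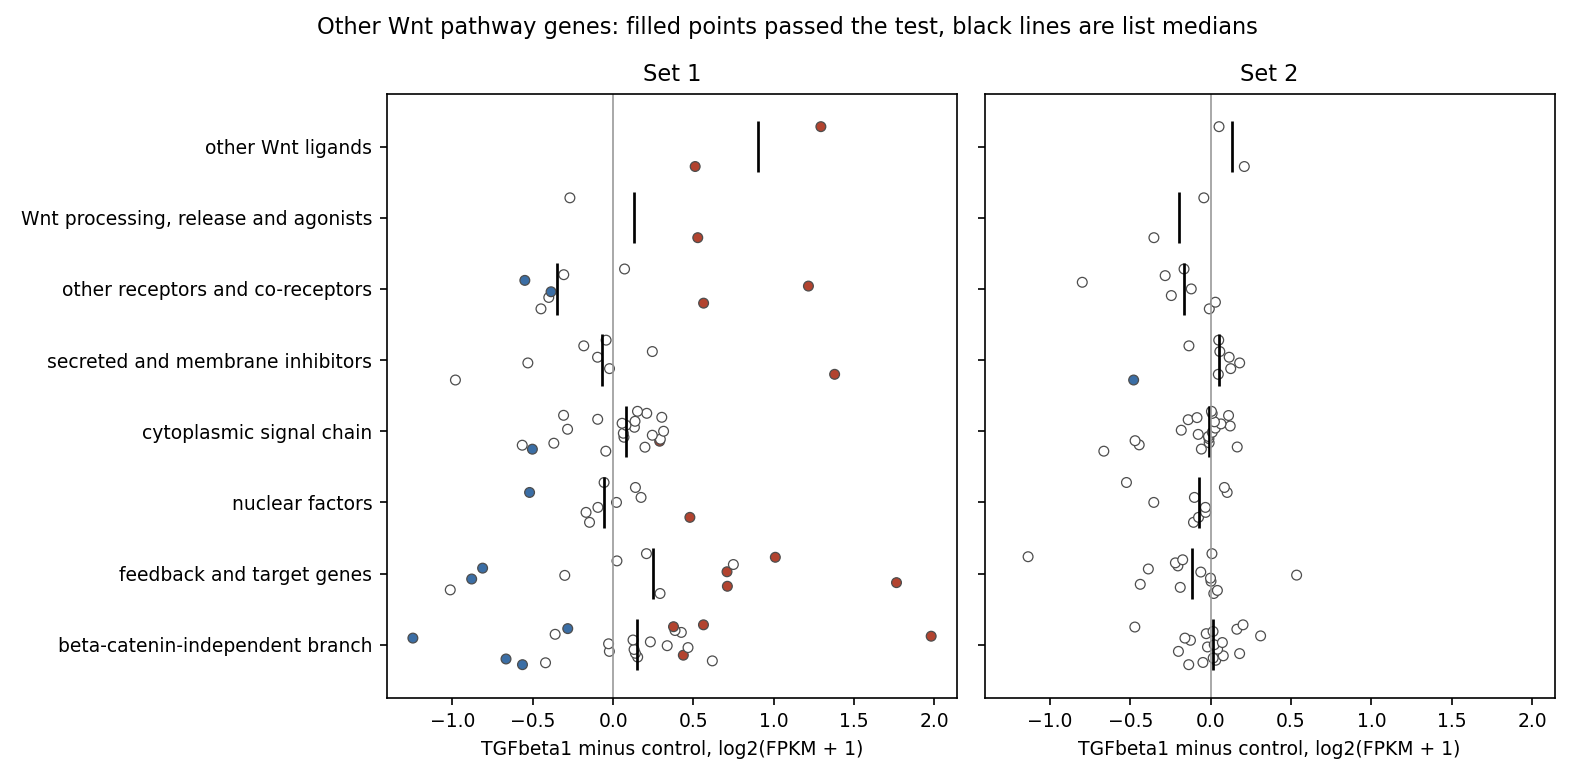
Difference of each tested gene of 8 Wnt pathway lists, TGFbeta1 minus control on the log2(FPKM + 1) scale (horizontal axis), with set 1 at the left and set 2 at the right; filled points were called (red higher, blue lower) and black lines are list medians. In set 1 the called genes run from -1.25 for PRICKLE1 to 1.98 for PRICKLE2, which both passed the filter only through the group where they were higher. In set 2 DKK1, at -0.48, is the single called gene.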

How the data were processed

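RNA was measured in 12 MCF-12A libraries, 6 given TGFbeta1 and 6 controls. FastQC, cutadapt, HISAT2 2.0.4, StringTie 1.2.3 and hg19 are named in the submitters' processing notes; the sources used here give no settings or strandedness. FPKM per protein-coding transcript is what the authors deposited, in 44112 transcripts of 13410 genes (set 1) and 29204 transcripts of 11504 genes (set 2). Set 1's headers name no unit, so its FPKM is inferred from its values. For set 2 the authors also deposited log2 group means and log2 fold changes of FPKM + 1, a linear ratio, p-values and q-values for each transcript, used only where their table is named. Low values showed no whole-read steps, so depth and counting error are unknown, and the replicate number limits precision. FPKM divides by the library total, so a change in abundant genes shifts all others, and reads of similar transcripts can be split between them.

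Transcripts were summed per gene, with 163 symbols renamed through shared transcript identifiers. Genes with a mean of at least 1 FPKM were tested two-sided with limma 3.58.1 (R 4.3.3; empirical Bayes with trend) on log2(FPKM + 1), a scale that understates the change of low genes, with Benjamini-Hochberg adjustment over all tested genes. The lowest listed transcript means were 0.0250 FPKM in set 1 and 0.250 FPKM in set 2. Samples were grouped by the labels' agent. Comparisons were TGFbeta1 against control within each set and the interaction of set and agent. The procedure was tested on simulated data. One response gene of the check list is not reported here. Tables and plots used Python 3.11.15, pandas 2.3.3 and matplotlib 3.10.9. Members and lists were chosen with earlier results of these data known. All members are named, and from each other list up to 2 called genes with the smallest p per set and direction. The response genes used as a check and transcripts where at least 2 reach 1 FPKM are named too. WNT5B transcripts, single markers, ROR2, NKD1, NKD2, RNF43 and ZNRF3 are outside this rule and were named after their values were seen. The alternatives tried were 3 other scalings, a minimum of 5 FPKM or none, a pseudocount of 0.1, limma without trend or with robust variance, sums over transcripts in both sets, leaving out each library, and a replicate block.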

Additional observations from a re-analysis of the deposited data

Results flagged for a closer look

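For 13 of the named Wnt genes the change with TGFbeta1 differed between the sets by the interaction test of limma over the 12 libraries. That test called 13.6% of 10548 genes. Apart from the members WNT5A, WNT5B and WNT7A, these genes were named because they were called in set 1. Set 2 called 0.321% of its genes and none of the response genes higher. A difference was thus partly fixed in advance, and the count supports nothing. The difference is given as the change in set 1 minus the change in set 2 on the log2(FPKM + 1) scale. Each difference holds the separate normalisation of the sets, and its cause was not tested. Among the ligands it was 1.36 for WNT5A and 1.86 for WNT5B with no filter (limma adjusted p = 6.69e-05 and 0.000355), 0.75 for WNT7A (0.0047) and 1.17 for WNT9A (0.000248). WNT9A reached the filter only through the TGFbeta1 libraries of set 1, where it was higher than in controls. WNT7A was close to the filter and passed partly through those libraries, where it too was higher than in controls. WNT5A and WNT5B lay higher in TGFbeta1 libraries of set 1 and lower in TGFbeta1 libraries of set 2, each time with no overlap with the controls.

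Among other pathway genes it was 2.64 for PRICKLE2 (limma adjusted p = 0.000377), 2.20 for EPHB2 (0.00043), 1.33 for DKK3 (0.00148), 0.90 for CD44 (0.000356), 0.63 for GPC4 (0.00403) and 0.55 for BCL9 (0.018). It was -0.88 for EPHB3 (0.00563), -0.74 for CELSR2 (0.0123) and -0.62 for TLE1 (0.00443). EPHB2, for example, stood at 5.84 ± 0.105 FPKM with TGFbeta1 and 1.02 ± 0.231 FPKM in controls of set 1, and at 1.55 ± 0.737 FPKM with TGFbeta1 and 2.35 ± 0.164 FPKM in controls of set 2 (SD, n = 3 each). PRICKLE2 and GPC4 had means under 1 FPKM in every group but the TGFbeta1 libraries of set 1. They passed the filter only through that group, so nothing is read from their p-values. With transcripts that both sets list, PRICKLE2 of set 1 fell under the filter.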

How the results depend on the processing

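In set 1, 2 members and 26 other pathway genes were called. Member calls were 4 with no filter on low values, 0 with a minimum of 5 FPKM, 1 (WNT7B) with sums over transcripts that both sets list, and 2 or 3 under the other scalings and limma settings. Other pathway calls were 14 with a minimum of 5 FPKM and 17 with shared transcripts. Leaving out 1 library gave 1354 to 2030 calls over all genes in place of 2186, 0 to 3 member calls (WNT5B had a mean under the filter when any 1 TGFbeta1 library was left out) and 12 to 24 other pathway calls. In set 2, all genes gave 17 calls with an equal sum and 20 without trend in place of 34, and 0 to 23 without 1 library, with 0 when control replicate 4 was left out; other pathway calls were 2 with no filter, 0 without trend and 0 to 0 without 1 library. Members had no call in set 2 under any of these alternatives. The interaction gave 1050 to 1527 calls in place of 1436. Deviations of same-numbered libraries were only weakly correlated (0.0075 to 0.0457), beside -0.0534 to 0.0137 for other pairs. The numbers are not stated to pair the samples and were not taken to. With the replicate block, set 1 gave 1211 calls, 1 member (WNT5B, limma adjusted p = 0.0349) and 11 other pathway genes. Set 2 then gave 0 calls over all genes and 0 other pathway genes, and the interaction gave 1114.

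Small changes that were not called in set 2 changed sign in some fits. Without 1 library they ran from -0.1316 to 0.0342 for FZD2, -1.4608 to 0.4964 for FZD6, -0.0767 to 0.0415 for FZD7, -0.0164 to 0.2280 for LRP6, -0.0140 to 0.0887 for WNT3, -0.0001 to 0.0872 for DKK3, -0.9229 to 0.0038 for CSNK1D, -0.1341 to 0.0387 for AXIN1, -0.1230 to 0.0854 for EPHB3, -1.2321 to 0.9861 for MYC and -0.0445 to 0.1531 for CELSR2. EPHB3 was at -0.0216 with an equal sum and MYC at 0.1386 with shared transcripts. The interaction ran from -0.4836 to 0.0284 for FZD2 and from -0.8135 to 1.1437 for FZD6, which was at -0.0193 with shared transcripts. The cause was not tested. A gene whose mean fell under the filter gave no value in that alternative.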
